A study of Danio rerio with 8 samples.

Results

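The *slc39a* genes encode zinc importers, and their levels were followed in *sox10*+ cells of zebrafish embryos that lack the zinc exporter Slc30a1 and of control embryos. The genes were found by name from a list of 10 symbols of the family. A row was found in both tables for 9 of the 10, out of 25926 gene identifiers shared by the tables, and *slc39a3* was not analysed here. RNA was measured by SMART‐seq, in which polyadenylated RNA is copied into cDNA and amplified by PCR before sequencing. There were 4 groups with 2 libraries each, namely control and *slc30a1* mutant embryos at 2 days post‐fertilization (2 dpf) and the same genotypes at 2.5 dpf. The mutants are homozygous for CRISPR/Cas9 lesions in both *slc30a1a* and *slc30a1b*, and the controls are siblings whose alleles are not given in the labels. In a cross that the study describes for raising mutants, the parents were *slc30a1b*-/-, so that control siblings from such a cross would lack *slc30a1b* as well, and which cross supplied these libraries is not given in the sources used here. All embryos carried the *Tg(sox10:kikGR)* transgene, and its fluorescence, driven by *sox10* regulatory DNA, was what the cells were sorted on. The number of embryos pooled for a library and the allele used are also not given in the sources used here. Nothing states that the 2 libraries of a group came from separate clutches, so the p-values measure only the spread between these libraries, which may be technical.

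Zinc enters the cytosol through Slc39a proteins (the ZIP family), either across the plasma membrane or out of organelles, and leaves it through Slc30a proteins (the ZnT family). Slc30a1 is the exporter of the plasma membrane, and it removes zinc from the cell. Importer levels are known to respond to zinc supply in several vertebrates, with zinc-responsive transcription acting through the metal-sensing factor Mtf1. In the zebrafish gastrula, *slc39a6* (also called *liv1*) acts downstream of Stat3 in the cell movements of the organizer, where it is needed for Snail to enter the nucleus.

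Levels are given as FPKM, fragments per kilobase of transcript, scaled to the mapped reads of a library, which the authors computed and rounded to 2 decimals. FPKM is scaled to transcript length, and levels of different genes are set side by side on that basis only. Whether the copying into cDNA and the PCR treated all transcripts alike was not tested. The FPKM of a library summed to between 609836 and 697012 and between 22265 and 24327 genes per library were above 0, while the number of reads behind a value is unknown. The targeted gene *slc30a1a* was at 12.12 and 11.74 FPKM in controls and at 5.96 and 7.06 FPKM in mutants at 2 dpf, and at 8.56 and 11.22 FPKM in controls and 5.44 and 4.98 FPKM in mutants at 2.5 dpf. Its mutant libraries lay below the controls at either stage, while *slc30a1b* was at 0 to 0.14 FPKM in the 8 libraries. Among the markers fixed for neural crest and arch, *sox10* was between 47.59 and 156.01 FPKM in the 8 libraries and *crestin* between 0.18 and 0.51 FPKM. Markers of other cells were also present. The 4 myeloid markers summed to between 9190 and 39900 FPKM and the 5 red blood cell markers to between 2310 and 17900 FPKM per library. In bulk RNA of sorted cells, fewer cells of a type and less RNA per cell cannot be told apart.

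**Figure D1:**
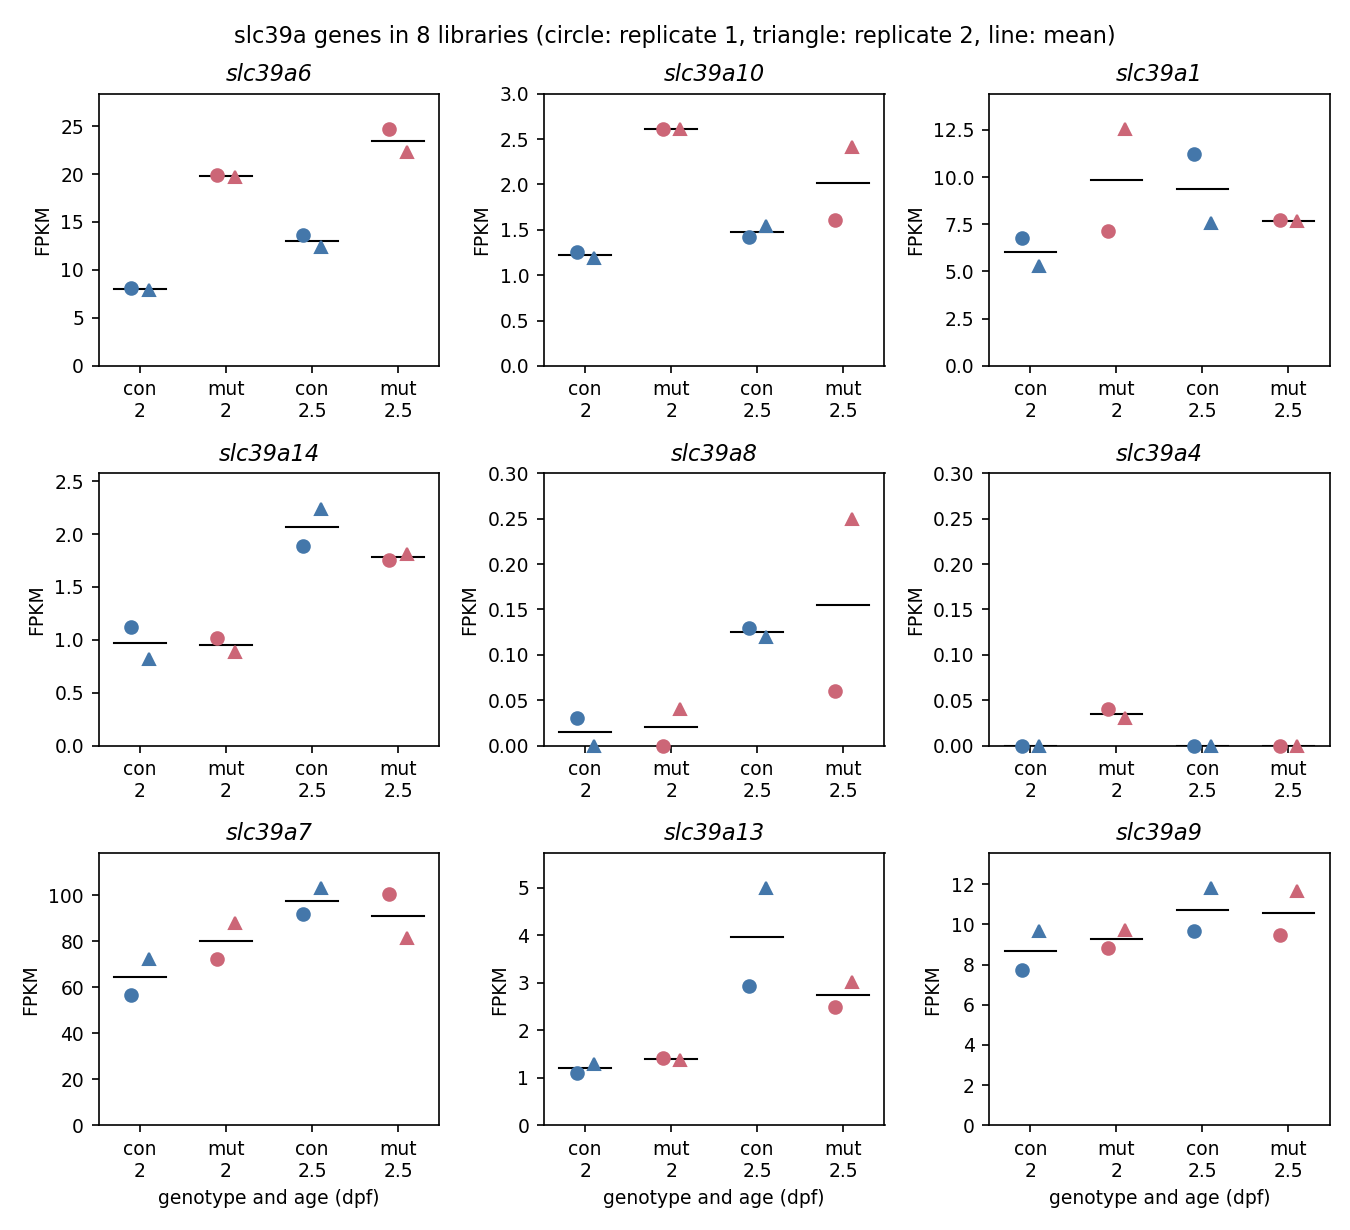
Levels of the 9 *slc39a* genes in each of the 8 libraries. The vertical axes show FPKM on a linear scale from 0, with a scale of its own for each gene, and the horizontal axis the genotype and age. Blue points are controls, red points are mutants, circles are replicate 1, triangles are replicate 2 and lines are means. *slc39a6* lay between 7.90 and 13.67 FPKM in controls and between 19.73 and 24.69 FPKM in mutants, and *slc39a4* did not exceed 0.04 FPKM.

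By FPKM the family was dominated by *slc39a7*, whose product releases zinc from the endoplasmic reticulum into the cytosol in mammals. It was at 56.77 to 102.84 FPKM and made up 62.4 to 73.5% of the summed FPKM of the 9 genes. Its values were 56.77 and 72.43 FPKM in controls and 72.05 and 88.06 FPKM in mutants at 2 dpf, and 91.91 and 102.84 FPKM in controls and 100.62 and 81.43 FPKM in mutants at 2.5 dpf. The genotypes thus overlapped in *slc39a7* at either stage. Without *slc39a7* the other 8 genes summed to 26.12 and 26.15 FPKM in controls and 40.95 and 46.94 FPKM in mutants at 2 dpf, and to 40.91 and 40.60 FPKM in controls and 47.81 and 49.06 FPKM in mutants at 2.5 dpf. That sum did not overlap between the genotypes at either stage, and the genotype means of *slc39a6* alone differed by less FPKM than those of the sum at 2 dpf and by more at 2.5 dpf. In controls at 2 dpf the mean of *slc39a7* was 64.6 ± 11.1 FPKM (SD, n = 2), followed by *slc39a9* at 8.69 ± 1.37 FPKM (SD, n = 2), *slc39a6* at 8.01 ± 0.156 FPKM (SD, n = 2) and *slc39a1* at 6.03 ± 1.05 FPKM (SD, n = 2). The libraries of *slc39a9* and *slc39a6* overlapped there, while those of *slc39a7*, *slc39a6* and *slc39a1* did not. Lower in that order were *slc39a10*, *slc39a13* and *slc39a14*, with means of 1.22, 1.21 and 0.970 FPKM and overlapping libraries between neighbours. In mutants at 2 dpf *slc39a6* ranked second with no overlap with its neighbours, *slc39a10* stood above *slc39a13* with no overlap, and *slc39a1* and *slc39a9* overlapped. The members also included genes at the floor of the measurement. *slc39a4*, the intestinal importer of dietary zinc in mammals, was listed at 0 in 6 libraries, and the mutants at 2 dpf had 0.04 and 0.03 FPKM. *slc39a8*, which carries manganese and other metals as well as zinc in mammals, was at 0 to 0.25 FPKM in the 8 libraries. Both stayed under the filter of a mean of 0.5 FPKM that a gene had to reach to be tested, which left 7 members in each comparison.

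The first comparison asked which importers differed in mutants from their sibling controls at 2 dpf. *slc39a6* rose, and *slc39a10*, *slc39a1* and *slc39a13* had higher values in both mutant libraries without passing the test. Levels were compared by limma on log2(FPKM + 1), with a Benjamini‐Hochberg adjusted p under 0.05 over all genes tested as the threshold, with positive log2 fold changes where mutants were higher. SE is the standard error of the log2 fold change. Of the 7 members tested 1 was called, against 3.52% of all genes tested at this stage. Mutant libraries lay wholly above the controls for 4 of the 7 members, against 44.8% of all genes tested, and wholly below for 0, against 12.1%. Beside *slc39a6*, *slc39a10* and *slc39a1* the 4 included *slc39a13*, with a log2 fold change of 0.12. The median log2 fold change of the 7 was 0.31, beside 0.18 over all genes tested, and 6 of the 7 members and 71.9% of all genes had a log2 fold change above 0. Median‐ratio rescaling, which divides a library by the median of its ratios to a reference made of the libraries compared, put the median over all genes at -0.02. Of the 7 members 4 then had a log2 fold change above 0, *slc39a6*, *slc39a10*, *slc39a1* and *slc39a7*, and *slc39a6* was still called (0.96, adjusted p = 0.0393).

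At 2 dpf *slc39a6* (ENSDARG00000068143) was at 8.12 and 7.90 FPKM in controls and at 19.92 and 19.73 FPKM in mutants. The libraries of a group were close to each other and the groups did not overlap, the mutant mean being 2.48 times the control mean. The log2 fold change was 1.21 (SE 0.16, 95% interval 0.81 to 1.61, limma adjusted p = 0.0228), and 1.41% of all genes tested had a larger one. With a pseudocount of 0.1 in place of 1 added to the FPKM, that share was 4.39%. The call rested on all 4 libraries, since the adjusted p was 0.0818 to 0.148 when any single library was left out, with log2 fold changes of 1.19 to 1.23, and limma then called 0 to 227 of all genes. It was also lost without the filter on low levels (adjusted p = 0.0695).

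*slc39a10*, the closest relative of *slc39a6* and its partner in a complex in mammalian cells, is known to be repressed by zinc in the zebrafish gill. *slc39a10* (ENSDARG00000005823) was at 1.25 and 1.19 FPKM in controls and at 2.61 FPKM in each mutant library at 2 dpf. Mutants lay above controls by more than the spread within either group, with means that differed 2.14 times, yet at a level close to the pseudocount. The log2 fold change was 0.70 (SE 0.16, limma adjusted p = 0.0702), which missed the threshold, and the adjusted p lay between 0.0668 and 0.282 over the alternative settings. With a pseudocount of 0.1 in place of 1 its log2 fold change was 1.04.

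*slc39a1* (ENSDARG00000058257), an importer of the plasma membrane found in most mammalian tissues, was at 6.77 and 5.28 FPKM in controls and at 7.12 and 12.54 FPKM in mutants at 2 dpf. Its groups did not overlap by a margin of 0.35 FPKM only, and the mean difference was carried by mutant replicate 2. The log2 fold change was 0.59 (SE 0.28, limma adjusted p = 0.253), and it was 0.22 without mutant replicate 2 and 0.95 without mutant replicate 1.

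The other 4 members were *slc39a14*, an importer of zinc, iron and manganese in mammals, and the organelle transporters *slc39a7*, *slc39a13* and *slc39a9*. Their log2 fold changes at 2 dpf lay between -0.01 for *slc39a14* and 0.31 for *slc39a7*, with adjusted p between 0.380 and 0.982. The 95% intervals reached from -0.39 to 0.37 for *slc39a14* and from -0.17 to 0.79 for *slc39a7*. Changes of that size in these genes are therefore not excluded by 2 libraries per group.

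**Figure D2:**
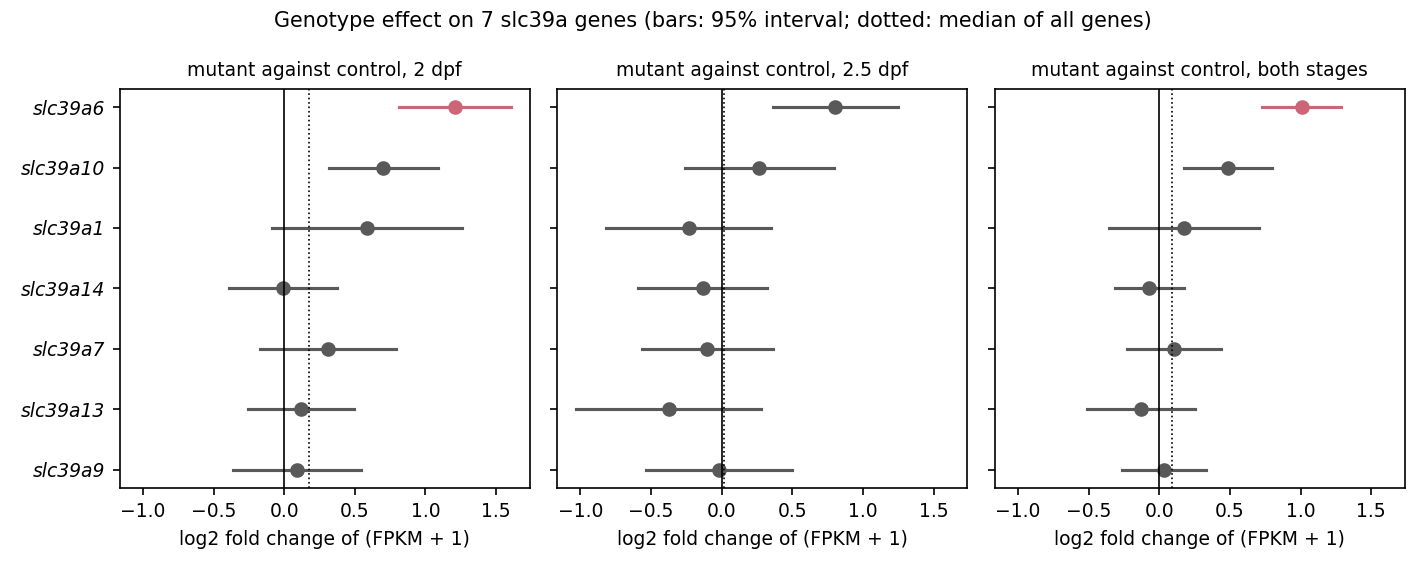
Log2 fold changes of the 7 tested *slc39a* genes, mutant against control. The horizontal axis shows the log2 fold change of FPKM + 1 with its 95% interval from limma, at 2 dpf, at 2.5 dpf and over both stages, and the dotted line the median of all genes tested. Red marks an adjusted p under 0.05, which was reached by *slc39a6* at 2 dpf (1.21) and over both stages (1.01).

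At 2.5 dpf the same comparison gave *slc39a6* as the member with the highest log2 fold change, though limma called 0 of the 7 members. It also called 0 of all 17379 genes tested (0%), and 2128 genes had an unadjusted p under 0.05, *slc39a6* among them. *slc39a6* was at 13.67 and 12.36 FPKM in controls and at 24.69 and 22.26 FPKM in mutants. The groups again did not overlap and the mutant mean was 1.80 times the control mean. On the log2 scale it stood 0.80 higher (SE 0.18, 95% interval 0.36 to 1.25, limma adjusted p = 0.201). A larger log2 fold change was found in 3.44% of all genes, and in 6.83% with a pseudocount of 0.1. *slc39a10* was at 1.42 and 1.54 FPKM in controls and at 1.61 and 2.41 FPKM in mutants. The lower mutant library was close to the controls, and the log2 fold change of 0.27 (SE 0.21, limma adjusted p = 0.682) was 0.07 without mutant replicate 2 and 0.46 without mutant replicate 1. The remaining 5 members had log2 fold changes between -0.38 and -0.02 with adjusted p between 0.640 and 0.980. Mutant libraries lay wholly above the controls for 2 of the 7 members, *slc39a6* and *slc39a10*, against 24.3% of all genes tested. They lay wholly below for 1 of the 7, *slc39a14*, against 19.2% of all genes. *slc39a14* was at 1.89 and 2.24 FPKM in controls and 1.76 and 1.81 FPKM in mutants. The median over the members was -0.10, beside 0.02 over all genes.

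*slc39a1* did not keep its position of 2 dpf. It was at 11.21 and 7.57 FPKM in controls and at 7.73 and 7.65 FPKM in mutants at 2.5 dpf, with overlapping libraries. The genotype effect at 2.5 dpf less that at 2 dpf was -0.82 for *slc39a1* (SE 0.40, 95% interval -1.74 to 0.10, limma adjusted p = 0.859), -0.40 for *slc39a6* (SE 0.21, 95% interval -0.90 to 0.09, limma adjusted p = 0.859) and -0.43 for *slc39a10* (SE 0.25, limma adjusted p = 0.859). In this test limma called 0 of the 7 members and 0 of all 16703 genes (0%), with 902 genes and 0 members at an unadjusted p under 0.05. All 7 members were below 0 here, beside a median of -0.16 over all genes, of which only 28.9% were above 0. After median‐ratio rescaling 5 of the 7 members were below 0. With single libraries left out the difference for *slc39a1* lay between -1.19 and -0.45, the ends being without mutant replicates 1 and 2 of 2 dpf, and that for *slc39a10* between -0.63 and -0.24, without mutant replicates 2 and 1 of 2.5 dpf. No member was thus shown to respond differently at the later stage.

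Over both stages, with stage as a term in the fit, all 4 libraries of each genotype bear on the effect, and each contrast stays within the table of its own stage. *slc39a6* rose, with a log2 fold change of 1.01 (SE 0.12, 95% interval 0.73 to 1.29, limma adjusted p = 0.00256). It was 1 of 7 members called, against 9.01% of all genes tested. A larger log2 fold change was found in 1.71% of all genes, and in 4.68% with a pseudocount of 0.1. The 4 mutant libraries were all above the 4 control libraries, also across the stages, with 13.67 FPKM as the highest control value and 19.73 FPKM as the lowest mutant value. *slc39a10* was separated in the same way, with 1.54 FPKM as its highest control and 1.61 FPKM as its lowest mutant value. The share of all genes separated in this way was not counted, so the separation is given as a description only. The adjusted p of *slc39a6* over both stages lay between 0.00233 and 0.0144 over the 15 alternative settings, single libraries left out included. *slc39a10* had a log2 fold change of 0.48 (SE 0.14, limma adjusted p = 0.0633), and its adjusted p was 0.0268 without mutant replicate 1 of 2.5 dpf, with a log2 fold change of 0.60. Log2 fold changes of the other 5 members lay between -0.13 and 0.18.

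**Figure D3:**
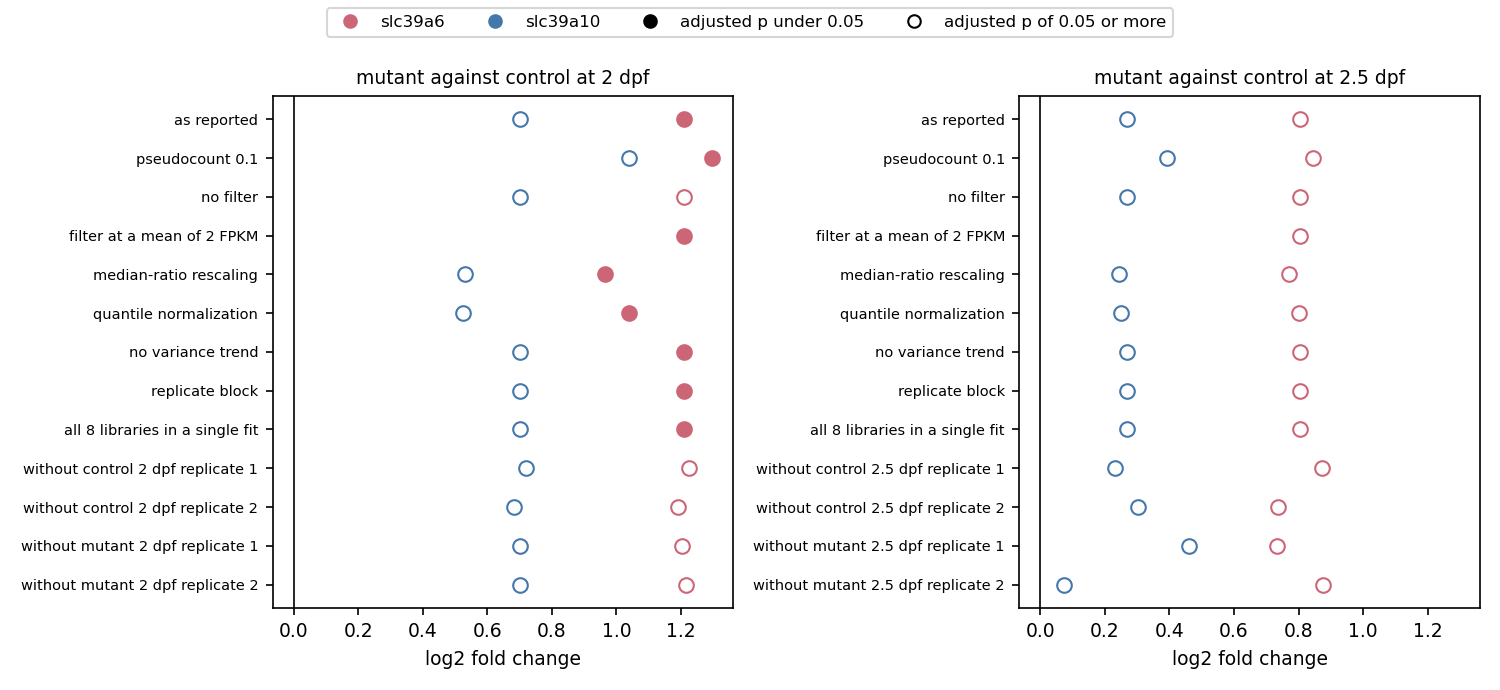
Log2 fold changes of *slc39a6* (red) and *slc39a10* (blue), mutant against control, as reported and under each alternative setting, at 2 and 2.5 dpf. Filled points have an adjusted p under 0.05, and *slc39a10* has no value where it fails the filter at a mean of 2 FPKM. *slc39a6* stayed between 0.96 and 1.30 at 2 dpf and between 0.73 and 0.88 at 2.5 dpf.

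Ratios of 2 genes within a library do not change with a single scaling factor per library, though quantile normalization can change them. They were computed after the values of these genes had been seen and are given as a description. The ratio of *slc39a6* to *slc39a7* was 0.143 and 0.109 in controls and 0.277 and 0.224 in mutants at 2 dpf. At 2.5 dpf it was 0.149 and 0.120 in controls and 0.245 and 0.273 in mutants. The ratio was thus at a like value in the controls of both stages and at a like, higher value in the mutants of both stages. By share of the summed family, *slc39a6* made up 8.01 to 10.3% in the 4 control libraries and 14.6 to 17.6% in the 4 mutant libraries. The ratio of *slc39a6* to the exporter *slc30a1a* was 0.670 and 0.673 in controls and 3.34 and 2.80 in mutants at 2 dpf, and 1.60 and 1.102 in controls and 4.54 and 4.47 in mutants at 2.5 dpf. That ratio also holds the lower level of the targeted gene itself. The ratio of *slc39a10* to *slc39a7* was higher in mutants at 2 dpf, and at 2.5 dpf it was 0.0160 and 0.0296 in mutants beside 0.0155 and 0.0150 in controls.

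**Figure D4:**
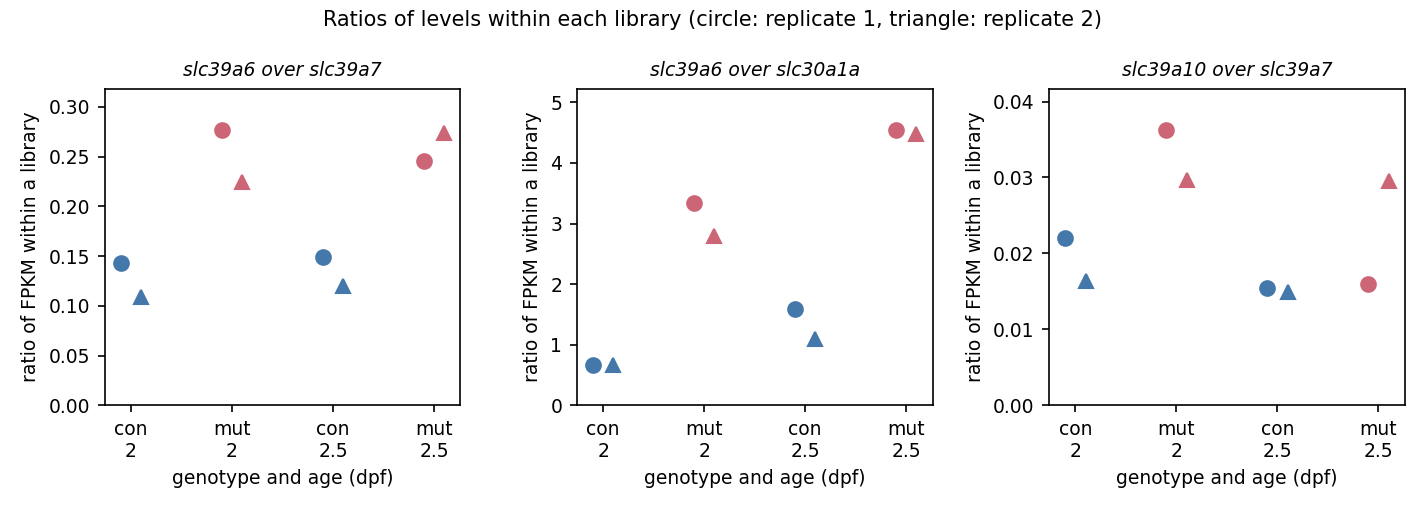
Ratios of FPKM within each library for *slc39a6* over *slc39a7*, *slc39a6* over *slc30a1a* and *slc39a10* over *slc39a7*. The vertical axes show the ratio on a linear scale from 0, and points are single libraries, blue for controls and red for mutants. *slc39a6* over *slc39a7* lay between 0.109 and 0.149 in controls and between 0.224 and 0.277 in mutants.

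From 2 to 2.5 dpf the family was compared within each genotype, and here stage and table are confounded, since each stage has a table of its own. In controls *slc39a13* rose, a transporter of the secretory pathway whose loss in human and mouse causes a connective tissue disorder. *slc39a13* (ENSDARG00000000442) was at 1.11 and 1.30 FPKM at 2 dpf and at 2.94 and 4.98 FPKM at 2.5 dpf. The stages did not overlap, and the log2 fold change was 1.14 (SE 0.26, limma adjusted p = 0.0348). The median over all genes was 0.44 in this comparison, and relative to it *slc39a13* stood 0.70 higher. It was 1 of 7 members called in controls, against 21.5% of all genes tested, and 6 of the 7 lay wholly higher at 2.5 dpf, against 66.2% of all genes. All 7 had a log2 fold change above 0, as did 85.4% of all genes, and 3 of the 7 after median‐ratio rescaling. The call of *slc39a13* was lost under 7 of 13 alternatives, such as median‐ratio rescaling (log2 fold change 0.71, adjusted p = 0.123), and among single libraries without control replicate 2 of 2.5 dpf (0.84, adjusted p = 0.0640) and without either control of 2 dpf. *slc39a14* was at 1.12 and 0.82 FPKM at 2 dpf and at 1.89 and 2.24 FPKM at 2.5 dpf in controls, without overlap (log2 fold change 0.64, standard error 0.19, limma adjusted p = 0.0591). *slc39a6* had a log2 fold change of 0.64 (SE 0.18, limma adjusted p = 0.0565) and *slc39a7* of 0.59 (SE 0.20, limma adjusted p = 0.0747) between the stages in controls. After median‐ratio rescaling they were 0.06 for *slc39a6* and -0.03 for *slc39a7*. The sign of *slc39a6* turned in 0 of 13 alternatives (0.06 to 0.70) and that of *slc39a7* in 1 of 13, so that neither size is firm.

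In mutants limma called 0 of the 7 members from 2 to 2.5 dpf, against 2.8% of all genes tested, and 2 members had an unadjusted p under 0.05, *slc39a13* and *slc39a14*, against 28.3% of all genes. *slc39a13* was at 1.42 and 1.37 FPKM at 2 dpf and at 2.48 and 3.02 FPKM at 2.5 dpf (log2 fold change 0.64, standard error 0.16, limma adjusted p = 0.0815). *slc39a14* was at 1.02 and 0.89 FPKM at 2 dpf and at 1.76 and 1.81 FPKM at 2.5 dpf (log2 fold change 0.51, standard error 0.15, limma adjusted p = 0.105). These 2 genes had higher values at 2.5 dpf in both genotypes, without overlap, and so did *slc39a6*. They were the 3 members wholly higher at 2.5 dpf in mutants, against 52.2% of all genes. *slc39a6* had a log2 fold change of 0.23 (SE 0.15, limma adjusted p = 0.354), beside a median of 0.25 over all genes, and it was -0.13 after median‐ratio rescaling. *slc39a10* went the other way in mutants, from 2.61 FPKM in both libraries to 1.61 and 2.41 FPKM (log2 fold change -0.28, standard error 0.19, limma adjusted p = 0.384).

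The exporters of the *slc30a* family, which move zinc out of the cytosol, were measured beside the importers. Of 10 exporters 7 were tested at 2 dpf and 8 at 2.5 dpf. Limma called 0 of them at either stage, against 3.52% of all genes at 2 dpf and 0% at 2.5 dpf. An unadjusted p under 0.05 was found for 2 and 1 of them, against 24.6 and 12.2% of all genes. At 2 dpf median‐ratio rescaling brought *slc30a1a* past the threshold (log2 fold change -1.02, adjusted p = 0.0399) and the replicate block *slc30a10* (adjusted p = 0.0480). *slc30a10* reached the filter at 2 dpf only through its mutant libraries, with both controls at 0.17 FPKM, so its p-value there is no support. Over both stages 1 of 8 exporters was called, against 9.01% of all genes tested. It was the targeted gene *slc30a1a*, which was lower in mutants (log2 fold change -0.79, standard error 0.12, limma adjusted p = 0.00754). *slc30a5*, *slc30a6* and *slc30a7*, transporters of the secretory pathway in mammals, differed by at most 0.20 on the log2 scale at 2 dpf and at 2.5 dpf by -0.11 to 0.09. The median log2 fold change of the tested exporters, the targeted *slc30a1a* included, was 0.04 at 2 dpf, beside 0.18 over all genes. At 2.5 dpf it was -0.10, like that of the importers, beside 0.02 over all genes. *mt2*, a metallothionein that binds zinc in the cytosol and marks zinc load, was at 0.88 and 1.36 FPKM in controls and at 29.25 and 49.78 FPKM in mutants at 2 dpf. At 2.5 dpf *mt2* was at 0.30 and 0.84 FPKM in controls and at 7.41 and 16.89 FPKM in mutants. The mutants thus lay above the controls at either stage for *mt2* as for *slc39a6*. The log2 fold change of *mt2* was 4.22 at 2 dpf (limma adjusted p = 0.00267) and 2.99 at 2.5 dpf (limma adjusted p = 0.0953), where it was not called. From 2 to 2.5 dpf in mutants that of *mt2* was -1.68 (limma adjusted p = 0.082), beside 0.23 for *slc39a6*. *mtf1*, which encodes the zinc-sensing factor that drives metallothionein genes, was at 0.22 to 0.42 FPKM at 2 dpf and at 0.76 to 0.95 FPKM at 2.5 dpf, with overlapping genotypes at either stage.

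The genes most like *slc39a6*, the member with the widest range of group means, were sought among 16702 genes by the root mean square distance of profiles of log2(FPKM + 1) over the 8 libraries, each profile being centred on its own mean. The points share 4 groups and 2 tables, and the distances are a description. Nearest was *naprt*, which encodes an enzyme of NAD synthesis from nicotinic acid, at a distance of 0.07 beside a median of 0.53 over all genes. *naprt* was at 5.74 and 6.27 FPKM in controls and 14.24 and 15.22 FPKM in mutants at 2 dpf, and at 11.06 and 10.28 FPKM in controls and 18.91 and 17.30 FPKM in mutants at 2.5 dpf. Next were *BX511272.1*, *znf1183*, *si:ch211-119d14.3* and *pigr*, at distances of 0.10 to 0.14.

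Some markers of other cells also differed between the genotypes. At 2 dpf 5 of the 6 red blood cell identifiers were called lower in mutants, against 0.997% of all genes tested. The red blood cell sums were 11800 to 17900 FPKM in controls and 4190 to 5680 FPKM in mutants. The 4 lens markers summed to 108 to 146 FPKM in controls and 9.42 to 36.4 FPKM in mutants, 2 of the 3 tested being called lower, and *cryaa* was at 0 to 0.02 FPKM in the 8 libraries. The 4 photoreceptor markers summed to 17.7 to 31.7 FPKM in controls and 1.78 to 3 FPKM in mutants, with 1 of the 2 tested called lower, and the 4 myeloid markers to 38700 to 39900 FPKM in controls and 14700 to 23300 FPKM in mutants, with 0 of 4 called. Of all single genes tested at 2 dpf, 44.8% lay wholly higher in mutants and 12.1% wholly lower. Of the 12 marker lists 8 had sums that did not overlap between the genotypes at that stage. In mutants 5 were lower, with skeletal muscle as the fifth (113 to 165 and 68.4 to 95.9 FPKM). The 3 higher ones were neural crest and arch, ionocytes (25.9 to 31.1 and 34.8 to 37.9 FPKM) and otic cells (9.23 to 9.73 and 11.3 to 15.8 FPKM). Most of the ionocyte sum was *atp6v1aa*, at 25.30 and 23.21 FPKM in controls and 26.10 and 32.82 FPKM in mutants. Of the 4 ionocyte markers tested 0 were called, and 0 had a log2 fold change below 0. Not every marker went with its sum, and 71.9% of all genes tested at 2 dpf had a log2 fold change above 0. In the myeloid list 3 of 4 had a log2 fold change below 0, and most of the sum was *lyz* (38526.23 and 39655.51 FPKM in controls). *spi1b* was at 33.79 and 43.66 FPKM in controls and 34.63 and 44.41 FPKM in mutants. In the skeletal muscle list 3 of 4 were below 0, while *myod1* was at 1.97 and 0.60 FPKM in controls and 3.06 and 3.86 FPKM in mutants. At 2.5 dpf the sums of 4 of the 12 did not overlap, while those of red blood cells, lens and myeloid cells did. Of all single genes tested at that stage, 24.3% lay wholly higher in mutants and 19.2% wholly lower. Skeletal muscle was higher in mutants (26.1 to 30.0 and 34.9 to 74.9 FPKM in controls and mutants), and photoreceptor (30.0 to 42.4 and 1.77 to 10.9 FPKM), neuron (396 to 576 and 362 to 380 FPKM) and otic sums (36.4 to 53.9 and 27.1 to 27.4 FPKM) were lower. All 4 photoreceptor and all 4 neuron markers had a log2 fold change below 0, and 0 of the 4 skeletal muscle markers did. Limma called 0 of all genes tested at this stage, and so none of these markers. Most of the neuron sum was *stmn1b*, at 316.82 and 471.99 FPKM in controls and 297.53 and 293.06 FPKM in mutants. *elavl3* and *snap25a* overlapped between the genotypes, as did *acta1b* in the skeletal muscle list. Of all genes tested at 2.5 dpf, 51.9% had a log2 fold change above 0. Of the 2 otic markers tested 1 was below 0, and *oc90* was at 0.50 and 0.71 FPKM in controls and 2.57 and 3.77 FPKM in mutants. The neural crest and arch markers summed to 284 to 436 FPKM in controls and 465 to 504 FPKM in mutants at 2 dpf, with 0 of the 5 tested called. Of these 5, 1 had a log2 fold change below 0. *twist1a* was at 127.25 and 225.59 FPKM in controls and 270.29 and 279.16 FPKM in mutants. *sox10* overlapped, at 53.82 and 84.94 FPKM in controls and 47.59 and 70.32 FPKM in mutants. The part of these markers in the levels of the *slc39a* genes was not tested.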

How the data were processed

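SMART‐seq libraries of sorted *sox10*:kikGR+ cells were used, 2 in each of 4 groups of genotype and stage. Per the labels, the authors used HISAT and StringTie with GRCz11, and they deposited FPKM per gene in 1 table per stage. Tool versions are not given in the sources used here. Depth is unknown, because low values (0.3 to 3 FPKM), compared in 12 pairs of libraries, did not fall on steps that single reads would give (fullest bin of 0.05 width, 3.32 to 4.90% of genes). Genes whose mean in a fit reached 0.5 FPKM were tested with limma 3.58.1 in R 4.3.3, as log2(FPKM + 1) and with a trended prior variance, two-sided, with Benjamini‐Hochberg adjustment over all genes. A check on simulated data used larger changes than the members had in these fits, so it does not bear on the member results. An exact permutation test of 2 against 2 libraries cannot go below p = 0.333 and was not used.

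The members, the other lists and the tests were chosen with earlier results of these data known. Members were described singly when called, or when the genotypes did not overlap at a stage with a log2 fold change of at least 0.5, the others by range or where a comparison needed them. The settings varied were the pseudocount (0.1), the filter (none, or 2 FPKM), the scaling (by median ratios or quantiles), the variance trend (none), a replicate block, a single fit of 8 libraries and each library left out in turn. No sequences of the members are shown.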

Additional observations from a re-analysis of the deposited data

How the results depend on the processing

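Counts of called members moved as follows. At 2 dpf the count of 1 fell to 0 without the filter on low values and was 0 to 0 with each library left out in turn, a fit that takes the spread of the lone library from the other group. In controls from 2 to 2.5 dpf the count of 1 was 0 without the filter, 0 with median‐ratio rescaling, 0 with quantile normalization and 4 in the single fit of 8 libraries, and 0 to 1 with each library left out. Over both stages it was 1 to 2 with each library left out. Counts at 2.5 dpf, in mutants between the stages and for the difference between the stages stayed at 0 under the alternatives run. Over all genes the calls lay between 0 and 830 at 2 dpf (544 as reported, 47 without the filter, 236 after quantile normalization), between 0 and 738 at 2.5 dpf (0 as reported), between 661 and 1505 over both stages (1505 as reported), between 0 and 5671 in controls (3517 as reported), between 0 and 1622 in mutants (473 as reported) and between 0 and 1 for the difference between the stages (0 as reported). Among the alternatives to all 6 comparisons the sign turned in 1 of 80 fits of *slc39a6*, 2 of 75 of *slc39a10*, 20 of 80 of *slc39a9* and 3 to 5 fits of each other member, 0 of them with a call. For *slc39a6* and *slc39a10* 0 of these were comparisons of genotypes. Between the stages median‐ratio rescaling gave -0.0318 for *slc39a7* in controls and -0.13 for *slc39a6* in mutants. The cause was not tested.

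A block on the replicate number kept *slc39a6* called at 2 dpf and over both stages, left 0 members called at 2.5 dpf, and lowered the count in controls between the stages from 1 to 0. It raised the calls over all genes from 544 to 830 at 2 dpf and from 0 to 738 at 2.5 dpf. Differences between replicates 1 and 2 were correlated over 16703 genes, with only 2 libraries behind the difference of a group. The correlation was 0.15 between the genotypes at 2 dpf and 0.37 at 2.5 dpf. Between the stages it was -0.13 in controls and -0.11 in mutants. With crossed numbers between the stages, chosen after seeing the data, 1 member was called in controls and 0 in mutants.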

Other observations

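Of the importers that the list of members leaves out, *SLC39A11* (so spelled in the tables) and *slc39a5* had rows. *SLC39A11* was at 1.53 and 2.66 FPKM in controls and at 2.61 and 2.46 FPKM in mutants at 2 dpf, and at 5.24 and 3.57 FPKM in controls and 6.42 and 5.92 FPKM in mutants at 2.5 dpf. Its genotypes overlapped at 2 dpf and not at 2.5 dpf, where the log2 fold change was 0.42 (limma adjusted p = 0.538). From 2 to 2.5 dpf in mutants it rose (log2 fold change 1.02, SE 0.16, limma adjusted p = 0.0455), a call that 9 of the 13 alternatives lost, each single library left out among them, with an adjusted p of 0.0366 to 0.305. *slc39a5* was at 0.03 to 0.33 FPKM and was not tested.

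*slc30a10*, which exports manganese in mammals, had values in mutants wholly above the controls at either stage. It was at 0.17 FPKM in both controls and at 1.23 and 0.81 FPKM in mutants at 2 dpf (log2 fold change 0.78, limma adjusted p = 0.0528, with 0.0480 to 0.227 over the alternatives), and at 0.38 and 0.65 FPKM in controls and 0.68 and 2.63 FPKM in mutants at 2.5 dpf. Most of these levels lie below the pseudocount of 1, and with a pseudocount of 0.1 the log2 fold change at 2 dpf was 2.03 (adjusted p = 0.0542). Over both stages its log2 fold change was 0.75 (limma adjusted p = 0.0662), which missed the threshold. At 2 dpf and over both stages *slc30a10* reached the filter of a mean of 0.5 FPKM only through the mutant libraries. Without mutant replicate 1 of 2 dpf it was not tested at 2 dpf. Its p-values in these comparisons are therefore no support for a difference.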
